A study of Mus musculus with 6 samples.

Results

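Bicarbonate and acid-base transport was followed in the mouse submandibular gland through 6 genes of 32285 counted: the carbonic anhydrases Car2 and Car12, the Slc4 family members Slc4a11 and Slc4a4, the anion exchanger Slc26a6 and the sodium-proton exchanger Slc9a3. They were chosen by symbol, and each was present in the gene list of all 3 libraries. RNA was counted in single cells with 10x Genomics 3' v3 droplet libraries, and a count is a unique molecular identifier (UMI). The 3 groups were all made from female wild-type C57BL/6J mice. The whole epithelium, sorted on Epcam, came from untreated mice in the first group and from mice 90 days after 30 Gy to the left gland in the second. The third was a basal sort from untreated mice, Epcam-positive and high in Cd49f, an integrin of basal cells. The sorts were set to leave out dead cells and cells with the leukocyte or endothelial markers Cd45, Cd3, Cd16/32 or Cd31. All mice carry an age label of 8 to 10 weeks, which cannot be the irradiated mice's age at collection. A group was 1 library that pooled 3 mice, each with its own antibody hashtag, so n = 3 throughout, and group, library and age cannot be told apart. Mouse numbers are hashtag numbers and do not pair mice across groups.

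Saliva leaves the acini, the secretory end pieces, as a fluid rich in sodium and chloride, and the ducts remove salt and add bicarbonate on its way out. Carbonic anhydrases speed the exchange between carbon dioxide and bicarbonate plus a proton, and membrane transporters of the Slc4, Slc26 and Slc9 families move bicarbonate or protons across the cell surface. Intercalated ducts join the acini to the larger ducts, granular ducts secrete growth factors and kallikreins, and ionocytes are duct cells rich in proton pumps and ion channels.

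On the GRCm38 build Car2 lies at chr3:14886269-14900770, Car12 at chr9:66712296-66766845, Slc4a11 at chr2:130684107-130697519, Slc4a4 at chr5:88793858-89239656, Slc26a6 at chr9:108854043-108913049 and Slc9a3 at chr13:74086255-74169442. Slc4a4 overlaps the pseudogene Mkrn1-ps1 and the long noncoding gene Gm35855, and Slc9a3 overlaps the long noncoding gene Gm41003, so their counts are uncertain where the annotations overlap. RefSeq promoters (GRCm38.p6) were at hand for 4 of the 6 genes: Car12, Slc4a4, Slc26a6 and Slc9a3. The promoters of Car12 and Slc9a3 are shown, and among the named classes both genes had their highest level in the same cells, those called intercalated duct-like. Slc4a4 was also highest in these cells among the named classes, and its 2 promoters are not shown. Each sequence is the 250 bases before a start site that lies inside the gene's RefSeq span, on the plus strand, 5′ to 3′, at chr9:66713436-66713685 for Car12 and at chr13:74121163-74121412 for Slc9a3. Capitals mark a match on either strand to AGGAAG, a form of the letters bound by ETS factors such as Elf5, or to ACAAAG, a form of those bound by Sox factors. They are called the ETS and Sox letters here.

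Car12: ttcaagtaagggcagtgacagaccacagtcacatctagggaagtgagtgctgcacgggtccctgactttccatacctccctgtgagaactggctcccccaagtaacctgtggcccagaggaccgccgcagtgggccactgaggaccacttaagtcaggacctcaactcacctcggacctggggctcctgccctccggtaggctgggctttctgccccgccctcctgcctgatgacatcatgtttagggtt

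Slc9a3: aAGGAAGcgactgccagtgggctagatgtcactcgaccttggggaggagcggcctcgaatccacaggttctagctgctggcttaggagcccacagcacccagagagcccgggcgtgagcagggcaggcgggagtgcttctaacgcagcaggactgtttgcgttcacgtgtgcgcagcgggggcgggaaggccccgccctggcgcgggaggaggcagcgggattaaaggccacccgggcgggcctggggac

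The Slc9a3 window holds the ETS letters 249 bases before the start site and no Sox letters, and the Car12 window holds neither. Only these exact letters were searched, so a window without them can still hold other forms that ETS or Sox factors bind. Among all 32536 distinct RefSeq promoters of the same length, 29.6% hold the ETS letters and 16.5% the Sox letters, so the match is a description of these letters and not a binding site.

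After filtering and hashtag calls 2137 untreated, 2004 irradiated and 3098 basal-sort cells were kept, with 6673151 to 26892317 UMIs per mouse. Cells were clustered without the acid-base genes and named from marker lists rebuilt here. The classes used most were granular duct-like (636 untreated and 1082 irradiated cells), ionocyte-like (532 and 631) and intercalated duct-like (532 and 92). The intercalated markers Kit, Gfra3, Elf5 and Nkd2 were detected in the last class, while Col9a1 was at 0 counts there. The libraries differed in depth and in the share of mitochondrial UMIs, whose median per mouse was 9.55% ± 0.53 in the untreated and 4.38% ± 0.39 in the irradiated group (SD, n = 3). Acinar markers were detected in other classes of the untreated library. In ionocyte-like cells the 6 acinar markers summed to 11038 to 20385 CPM per mouse (counts scaled to 1000000 UMIs of the same cells), against 101 to 118 CPM in irradiated mice, where Aqp5 and Lpo were at 0. Libraries shared at most 15 cell barcodes.

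Granular duct-like and ionocyte-like cells lay mostly in different clusters in the untreated and irradiated libraries, and no batch correction was applied. Untreated granular duct-like cells lay in cluster 8 (444 cells) and cluster 14 (187 cells), and irradiated ones in cluster 19 (973 cells, led by Reg3g, Lgals3 and Areg) and cluster 14 (104 cells). Ionocyte-like cells lay in cluster 11 in the untreated and cluster 20 in the irradiated library. Intercalated duct-like cells lay in cluster 7 (370 untreated, 6 irradiated) and cluster 12 (162 and 86), and cluster 12 was led by chemokine and cytokine genes such as Cxcl2 and Tnf.

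**Figure D1:**
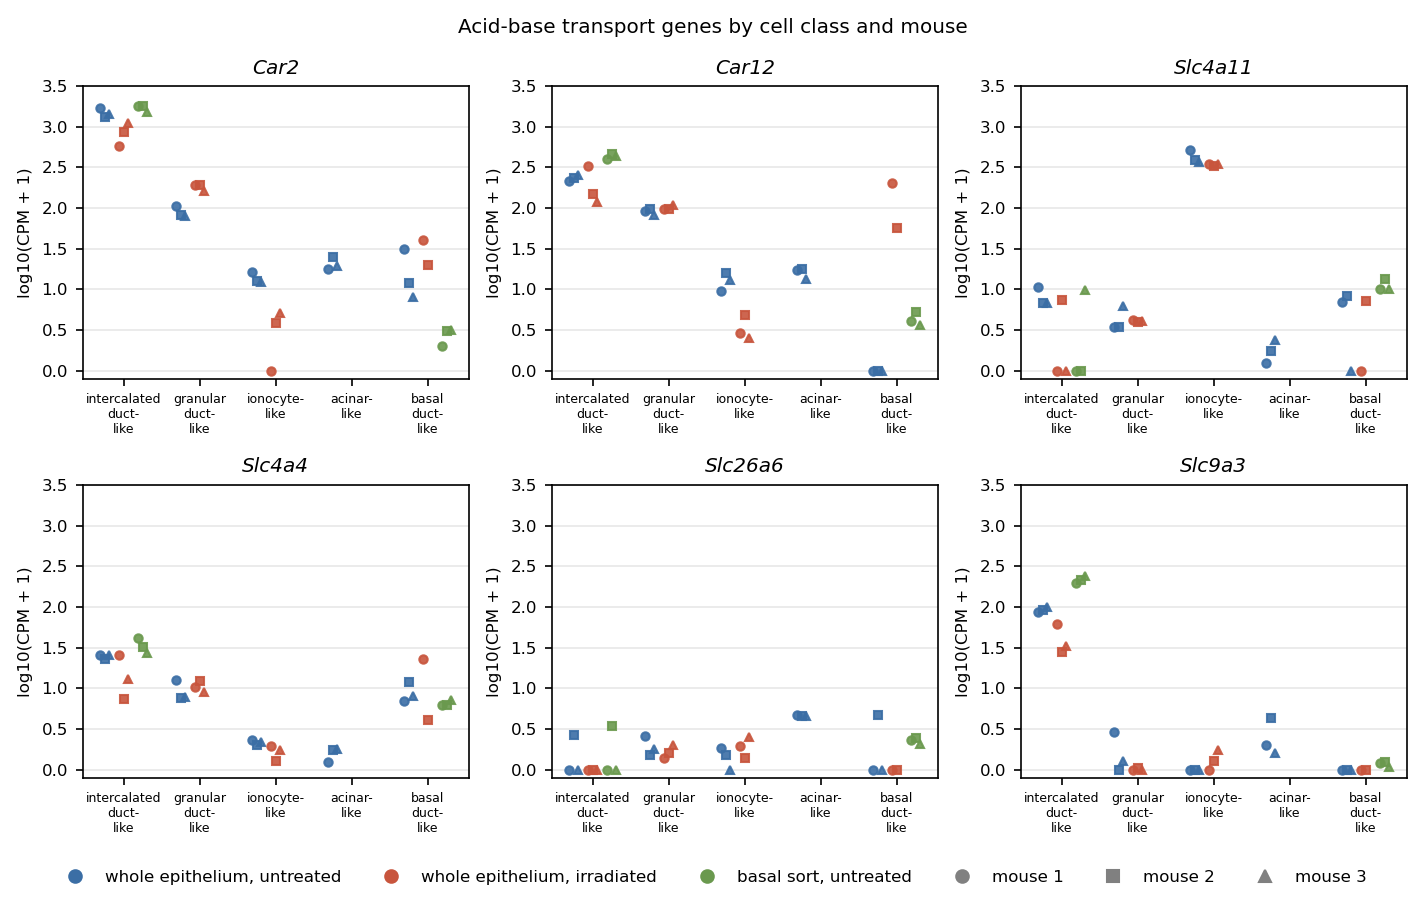
Level of each gene as log10(CPM + 1) on the y axis in 5 cell classes on the x axis, 1 point per mouse with at least 10 cells of the class, coloured by group. Car2, Car12, Slc4a4 and Slc9a3 were highest in intercalated duct-like cells of untreated whole epithelium, Slc4a11 in ionocyte-like cells and Slc26a6 in acinar-like cells. The irradiated basal duct-like points include cluster 13, whose leading genes go against that name.

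Levels were ordered over the 5 named classes with 10 or more cells in each of the 3 untreated mice, which leaves out rarer ones such as fibroblast-like cells. Car2, the abundant soluble carbonic anhydrase, was highest in intercalated duct-like cells of the untreated epithelium, at 1689, 1319.9 and 1445 CPM in mice 1 to 3. Granular duct-like cells followed at 104.5, 80.2 and 78.6 CPM, with no overlap between the classes. Acinar-like (19.6 CPM ± 3.8), basal duct-like (16.1 ± 12.5) and ionocyte-like cells (12.8 ± 2.2; SD, n = 3) were lower and overlapped with their neighbours in this order. The acinar-like value joins 2 clusters that differed, cluster 15 at 5.88 CPM over 119 cells (95% exact Poisson interval 4.64 to 7.36) and cluster 16, led by Smgc, at 134 CPM over 88 cells (116 to 153). Car12, a carbonic anhydrase anchored in the membrane with its active site outside the cell, had the same leading classes. It stood at 216, 235 and 250.1 CPM in intercalated duct-like cells and at 90.4, 96.8 and 80.8 CPM in granular duct-like cells. Acinar-like (15.1 ± 2.4) and ionocyte-like cells (11.8 ± 3.1) overlapped, with cluster 15 at 9.83 and cluster 16 at 57.9 CPM, and the 54 basal duct-like cells of this library held no Car12 UMI, which allows up to 4.16 CPM at 3 counts over the group.

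Slc4a11 moves protons or hydroxide ions and water and is a member of the bicarbonate transporter family by sequence. It was at 513, 391 and 368 CPM in untreated ionocyte-like cells of mice 1 to 3. The other 4 of the 5 classes were far lower and did not overlap with it, with intercalated duct-like cells next at 9.76, 5.70 and 5.71 CPM. Outside these classes, 11 fibroblast-like cells of 1 mouse stood at 33.8 CPM, from 3 UMIs, and the mixed cells described next were higher. With each cell thinned to 2000 UMIs, 55.0% ± 2.7 of ionocyte-like cells held a Slc4a11 UMI (SD, n = 3; 94.7% unthinned), against 1.66% ± 1.10 of granular duct-like cells (4.58% unthinned). Median depths were 11085 and 17978 UMIs, and 11 and 13 cells were left out as too shallow.

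A cluster of 64 untreated cells that carried both granular and ionocyte markers, called mixed, held Slc4a11 at 244, 147 and 256 CPM beside Car2 at 79.1, 52.4 and 38.4 CPM. Its median depth was 24721 UMIs, above the 11085 of ionocyte-like and the 17978 of granular duct-like cells. Cluster 10 had 7 of 8 ionocyte markers raised. It stayed unnamed because of a low median of 2417 UMIs with no marker among its leading genes. Its 113 irradiated cells held Slc4a11 at 684.5, 716 and 575 CPM in mice 1 to 3, and its 30 untreated cells had 10 Slc4a11 UMIs, all from mouse 1.

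Slc4a4 is the sodium-bicarbonate cotransporter that brings bicarbonate into epithelial cells. Among the named classes it was highest in intercalated duct-like cells, at 24.4, 22.0 and 24.8 CPM in untreated mice 1 to 3. Granular duct-like (8.35 CPM ± 2.85) and basal duct-like cells (8.04 ± 2.62; SD, n = 3) came next and overlapped, and ionocyte-like (1.16 ± 0.13) and acinar-like cells (0.59 ± 0.30) were lowest. The level was higher again in cluster 9, an unnamed cluster led by the oxidase genes Duox2 and Duoxa2. There Slc4a4 stood at 131 CPM over 38 untreated cells (95% exact Poisson interval 103 to 163), at 57.4 CPM over 31 irradiated cells (40.4 to 79.1) and at 304 CPM over 13 basal-sort cells (240.3 to 380.5). Mice spread widely within it, from 23.9 CPM in untreated mouse 1 to 203 CPM in untreated mouse 2, and these intervals cover counting error only.

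Slc26a6, an exchanger of chloride for bicarbonate and oxalate, was scarce, with 70 UMIs in the untreated cells kept. Untreated barcodes outside the comparisons held more, 235 UMIs in those without a hashtag call and 40 in those that failed the filter. Acinar-like cells held 52 of the 70 UMIs, at 3.71, 3.54 and 3.53 CPM in mice 1 to 3. Each class overlapped with the next in the order of levels, from acinar-like over basal duct-like (1.22 CPM ± 2.12, from 1 UMI) to ionocyte-like cells (0.45 ± 0.43; SD, n = 3).

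Slc9a3, the exchanger that takes up sodium for protons at the luminal face of many epithelia, was by far highest in intercalated duct-like cells among the named classes. It stood there at 86.4, 92.1 and 99.7 CPM in untreated mice 1 to 3. Acinar-like cells followed at 0.99, 3.36 and 0.59 CPM, and granular duct-like cells held 8 UMIs, 7 of them in mouse 1. Of the 25 acinar-like UMIs 23 lay in cluster 16, at 14.5 CPM (95% exact Poisson interval 9.18 to 21.7), and 2 in cluster 15, at 0.155 CPM. No Slc9a3 UMI was seen in 532 untreated ionocyte-like cells, which allows up to 0.502 CPM at 3 counts over the group.

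**Figure D2:**
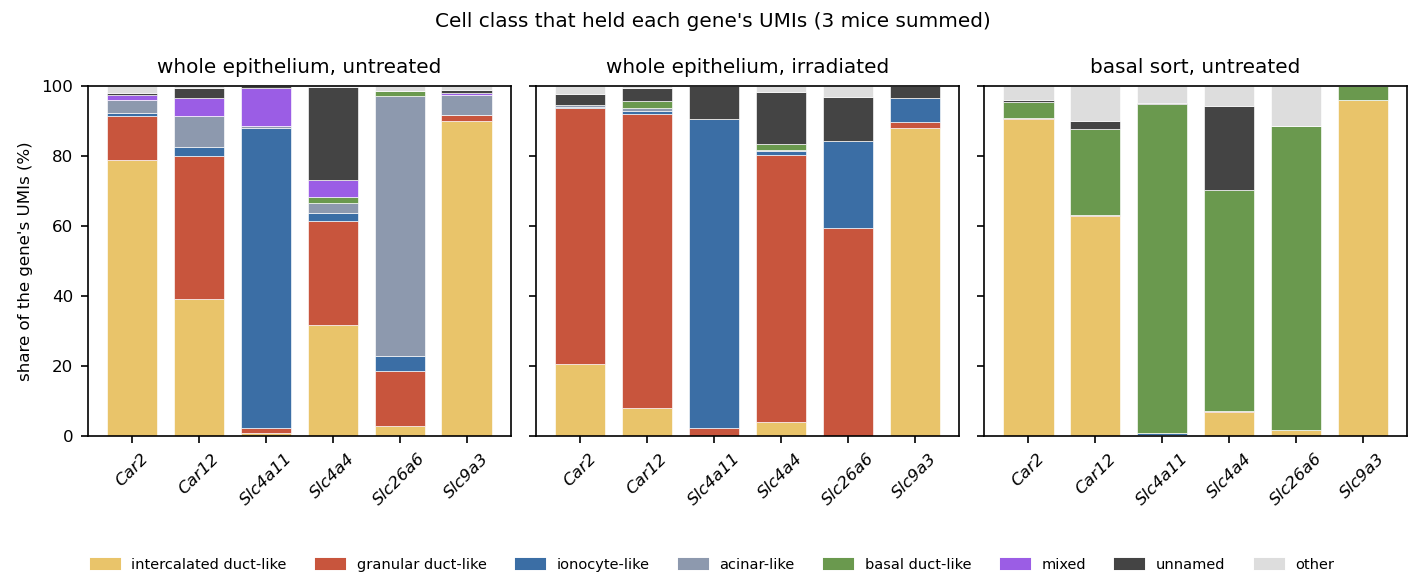
Share of each gene's UMIs (y axis, percent, 3 mice summed) that came from each cell class, for the 6 genes on the x axis in 3 panels, 1 per group. In the untreated epithelium 78.9% of Car2 UMIs came from intercalated duct-like cells, and in the irradiated epithelium 73.1% came from granular duct-like cells.

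The source of each gene's UMIs combines its level with the number and depth of the cells. In the untreated epithelium intercalated duct-like cells gave 78.9% of 8009 Car2 UMIs (95% exact binomial interval 78.0 to 79.8) and granular duct-like cells 12.5% (11.8 to 13.3). In the irradiated epithelium granular duct-like cells gave 73.1% of 7053 Car2 UMIs (72.0 to 74.1) and intercalated duct-like cells 20.6% (19.6 to 21.5). Car12 moved the same way, from 40.6% to 83.9% in granular duct-like cells and from 39.3% to 8.10% in intercalated duct-like cells. Slc9a3 came mostly from intercalated duct-like cells in both, 90.0% of 438 UMIs and 88.1% of 59. Slc4a11 came mostly from ionocyte-like cells in both, 85.8% of 3014 UMIs and 88.3% of 4211. Over the same mice intercalated duct-like cells made up 24.99% ± 4.56 of untreated and 4.02% ± 1.40 of irradiated cells (SD, n = 3), and granular duct-like cells 29.7% ± 1.6 and 55.5% ± 4.7. Shares are of sorted, dissociated cells assigned to a mouse, which leaves out 1719 untreated and 294 irradiated barcodes without a hashtag call. Whether these classes were lost from the tissue or from the sort was not tested.

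Irradiated and untreated mice were then compared within each class, so that the number of cells in the class does not enter. In granular duct-like cells Car2 was at 104.5, 80.2 and 78.6 CPM in untreated mice 1 to 3 and at 191, 189 and 159.5 CPM in irradiated mice 1 to 3. All irradiated mice were above all untreated mice. The rise was 1.00 ± 0.12 on the log2 scale (SE, edgeR adjusted p = 6.4e-05). Of the 4 members tested in this class 1 rose and none fell by edgeR, and Car2 was also the 1 member with an unadjusted p under 0.05. Of 9661 genes tested 37.9% passed, 18.9% higher and 19% lower.

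The separation also held inside cluster 14, which held granular duct-like cells of both groups and had all 11 granular markers raised. Car2 stood there at 53.2, 66.0 and 36.6 CPM in untreated mice 1 to 3 and at 361, 162 and 94.7 CPM in irradiated mice, of which mouse 1 gave 7 cells. In cells thinned to 2000 UMIs a Car2 UMI was present in 17.6% ± 4.7 of untreated and 26.1% ± 1.3 of irradiated granular duct-like cells (SD, n = 3; 59.9% and 84.97% unthinned), against 2.98% ± 1.04 and 0.47% ± 0.41 in ionocyte-like cells. The intercalated markers summed to 12.01 to 20.7 CPM in untreated and 2.93 to 5.03 CPM in irradiated granular duct-like cells, with Col9a1 at 0 in both. The 6 acinar markers summed to 6233 to 6505 CPM in untreated and 193 to 1824 CPM in irradiated granular duct-like cells, and the 8 ionocyte markers to 171 to 187 and 199.6 to 269 CPM. The part of these markers in the Car2 value was not tested. The log2 rise was 1.07 ± 0.13 (adjusted p = 6.5e-05) when cells with a UMI of Gfra3 or Esp4, genes highest in intercalated duct-like cells, were left out.

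In ionocyte-like cells Car2 was at 15.4, 11.7 and 11.3 CPM in untreated mice 1 to 3, from 36, 23 and 19 UMIs. Irradiated mice 1 to 3 were at 0, 2.83 and 4.18 CPM, from 0, 21 and 11 UMIs, and all lay below the untreated mice. Car2 fell by 2.10 on the log2 scale (SE 0.37; edgeR adjusted p = 0.000771). Car12 was at 8.55, 14.8 and 11.9 CPM in untreated mice and at 1.92, 3.78 and 1.52 CPM in irradiated mice, again without overlap. Car12 fell by 1.90 (SE 0.36; adjusted p = 0.00133). These were 2 of the 3 members tested, where 26% of 8936 genes passed, 10.6% lower and 15.4% higher.

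The Car2 and Car12 levels in ionocyte-like cells were low beside intercalated and granular duct-like cells. In untreated cells thinned to 2000 UMIs, 2.98% ± 1.04 of ionocyte-like cells held a Car2 UMI, against 7.05% ± 5.76 of acinar-like and 4.23% ± 3.903 of basal duct-like cells (SD, n = 3; 10.9%, 33.8% and 11.6% unthinned, at median depths of 11085, 26957 and 13164 UMIs). The thinned shares overlap within their SDs, while the unthinned acinar-like share, in deeper cells, lay above the others. The Car2 level of ionocyte cluster 11, 13.1 CPM (95% exact Poisson interval 10.3 to 16.3), lay between those of acinar clusters 15 and 16. How much of the ionocyte-like Car2 came from free RNA was not tested. For Car12 the share was 1.91% ± 0.81, against 2.81% ± 1.10 of acinar-like cells (9.75% and 43.6% unthinned), while no basal duct-like cell of the 54 held a UMI. Marker lists of other cells also differed between the groups in ionocyte-like cells. Lower after irradiation were the 6 acinar markers as given above, the 11 granular markers from 4375 to 5937 CPM in untreated to 2153 to 3015 CPM in irradiated mice, and the 5 intercalated markers from 216 to 233 CPM to 151 to 177 CPM, with Gfra3 and Col9a1 at 0 after irradiation. The 7 immune markers went the other way, from 1.53 to 3.85 CPM in untreated to 6.88 to 55.1 CPM in irradiated mice, where Cd3e and Cd79a were at 0. Kit and Elf5 were themselves at 88.9 and 115 CPM in untreated ionocyte-like cells, and their part and that of the other markers in the Car2 and Car12 values was not tested. With no Scrublet removal of doublets the Car2 value was -0.88 ± 0.32 (adjusted p = 0.0564) and that of Car12 -0.74 ± 0.25 (adjusted p = 0.0424). Without cells that held a UMI of Gfra3 or Esp4 the values were -1.93 ± 0.42 (adjusted p = 0.00433) and -1.76 ± 0.36 (adjusted p = 0.00261). Under a looser mitochondrial limit they were -3.44 and -3.46, and at a coarser clustering Car12 was at -3.08.

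The irradiation effect on Car2 differed between the classes when the difference itself was tested with a block per mouse. It was 3.11 lower on the log2 scale in ionocyte-like than in granular duct-like cells, that is -3.11 ± 0.33 (SE; adjusted p = 3.4e-06). For Car12 the difference was -1.99 ± 0.34 (adjusted p = 0.000589). These were 2 of 4 members tested, where 11.5% of 10799 genes passed, 6.15% with a lower effect in ionocyte-like cells and 5.37% with a higher one. With no Scrublet removal the differences were -1.97 for Car2 and -0.80 for Car12 (adjusted p = 0.000619 and 0.033), and without irradiated mouse 2 that of Car12 was -3.01. Under the looser mitochondrial limit they were -4.83 and -3.64, and at the coarser clustering that of Car12 was -3.18. The ionocyte-like side rests on 78 untreated Car2 UMIs and 69 Car12 UMIs. Slc4a11 (-0.13 ± 0.32, adjusted p = 0.86) and Slc4a4 (-1.48 ± 0.80, adjusted p = 0.271) did not pass. The ionocyte-like side of Slc4a4 rests on 7 untreated and 5 irradiated UMIs. Slc4a4 did pass under the looser limit (-2.99) and at the coarser clustering (-2.83), and Slc4a11 with each library clustered alone (3.30, adjusted p = 6.3e-10). In that clustering the untreated granular duct-like class took in a cluster of 70 cells with 6 ionocyte markers raised.

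In intercalated duct-like cells Car2 was at 1689, 1319.9 and 1445 CPM in untreated and at 575, 867 and 1122 CPM in irradiated mice 1 to 3, whose values rest on 13, 67 and 12 cells. The groups did not overlap, and the ratio of the means was 0.576, but 3 mice against 3 give no exact permutation p under 0.1, which was the value here (two-sided). Among 7157 genes of at least 10 CPM, 28% were lower without overlap in this class and 13.8% higher. Within cluster 12, which held most of the irradiated cells, untreated mice were at 1418, 976 and 1302 CPM and irradiated mice at 596, 863 and 1122 CPM, which overlap. Mice with fewer than 20 cells kept this class out of the fit. The 5 intercalated markers themselves summed to 677 to 699 CPM in untreated and 288 to 369 CPM in irradiated mice of this class. The 6 acinar markers summed to 16621 to 28114 CPM in untreated and 211 to 14267 CPM in irradiated mice. The part of these markers in the Car2 level, and in the Slc9a3 level of this class given below, was not tested.

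**Figure D3:**
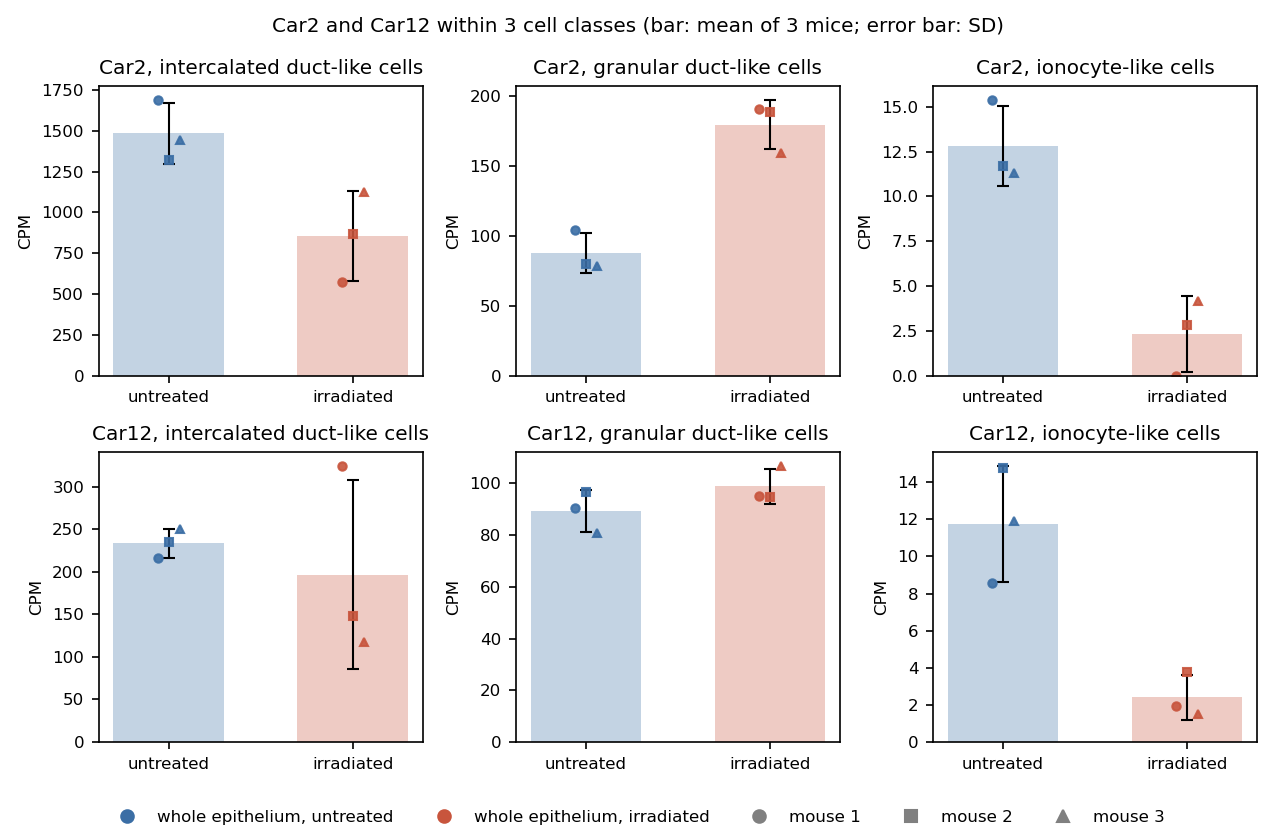
Car2 (upper row) and Car12 (lower row) in CPM on linear y axes that start at 0 and differ between panels, in 3 cell classes of untreated and irradiated mice on the x axis; points are mice, bars the mean of 3 mice and error bars the SD. Car2 separates the groups upward in granular duct-like cells and downward in ionocyte-like cells, where the axis ends near 15 CPM.

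Car12 in granular duct-like cells was at 90.4, 96.8 and 80.8 CPM in untreated and 95.2, 94.8 and 106.7 CPM in irradiated mice 1 to 3, which overlap. The change was 0.12 ± 0.12 on the log2 scale (adjusted p = 0.475), and 0.32 with each library clustered alone (adjusted p = 0.0447). In intercalated duct-like cells irradiated mice spread from 117.5 to 324 CPM around the untreated range of 216 to 250.1 CPM. Cluster 13, of 15 irradiated and no untreated cells, held Car12 at 219 CPM (95% exact Poisson interval 170 to 278). It had 3 of 7 basal markers raised and was counted as basal duct-like, but its leading genes, Sbpl, Csn3 and Dcpp3, go against that name, so its Car12 level is given for the cluster alone.

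Slc4a11 in ionocyte-like cells was at 513, 391 and 368 CPM in untreated and at 343, 329.8 and 347 CPM in irradiated mice 1 to 3. All irradiated mice were below all untreated mice, and the change of -0.28 ± 0.11 on the log2 scale did not pass (adjusted p = 0.0723). The call turned on the setting: without untreated mouse 3 the value was -0.37 (adjusted p = 0.0226), and under a stricter cell filter it was 0.00060 (adjusted p = 0.999). In granular duct-like cells Slc4a11 stayed near 3 CPM, with 2.44, 2.45 and 5.17 CPM in untreated and 3.22, 2.97 and 3.07 CPM in irradiated mice (-0.16 ± 0.32, adjusted p = 0.729). With each library clustered alone that value was -3.58 (adjusted p = 1.6e-07).

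Slc4a4 in granular duct-like cells was at 11.6, 6.62 and 6.80 CPM in untreated and 9.25, 11.4 and 8.05 CPM in irradiated mice 1 to 3. The values overlap, and the change was 0.20 ± 0.23 (adjusted p = 0.52). Slc9a3 in intercalated duct-like cells was at 86.4, 92.1 and 99.7 CPM in untreated and 61.2, 27.3 and 32.4 CPM in irradiated mice, from 10, 34 and 8 UMIs. The groups did not overlap (ratio of the means 0.434, exact permutation p = 0.1, two-sided). Within cluster 12 they did, with 45.6, 47.5 and 50.9 CPM in untreated and 61.0, 26.7 and 32.4 CPM in irradiated mice. Slc9a3 and Slc26a6 had too few counts for a test within granular duct-like or ionocyte-like cells.

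Over all cells of a mouse, the share of each class enters the level, and fewer cells of a type and less RNA per cell cannot be told apart. Of the 6 members 3 fell and none rose, and the same 3 had an unadjusted p under 0.05 by edgeR. Of 11966 genes tested 40.2% passed, 19.6% lower and 20.6% higher. The median log2 change was -0.46 over the members and -0.03 over all genes tested. Fold changes here use TMM scaling, which sets aside the acinar RNA that made up much of the untreated libraries (acinar markers summed to 206734 to 233905 CPM in untreated and 542 to 5364 CPM in irradiated mice). They therefore differ from ratios of CPM.

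**Figure D4:**
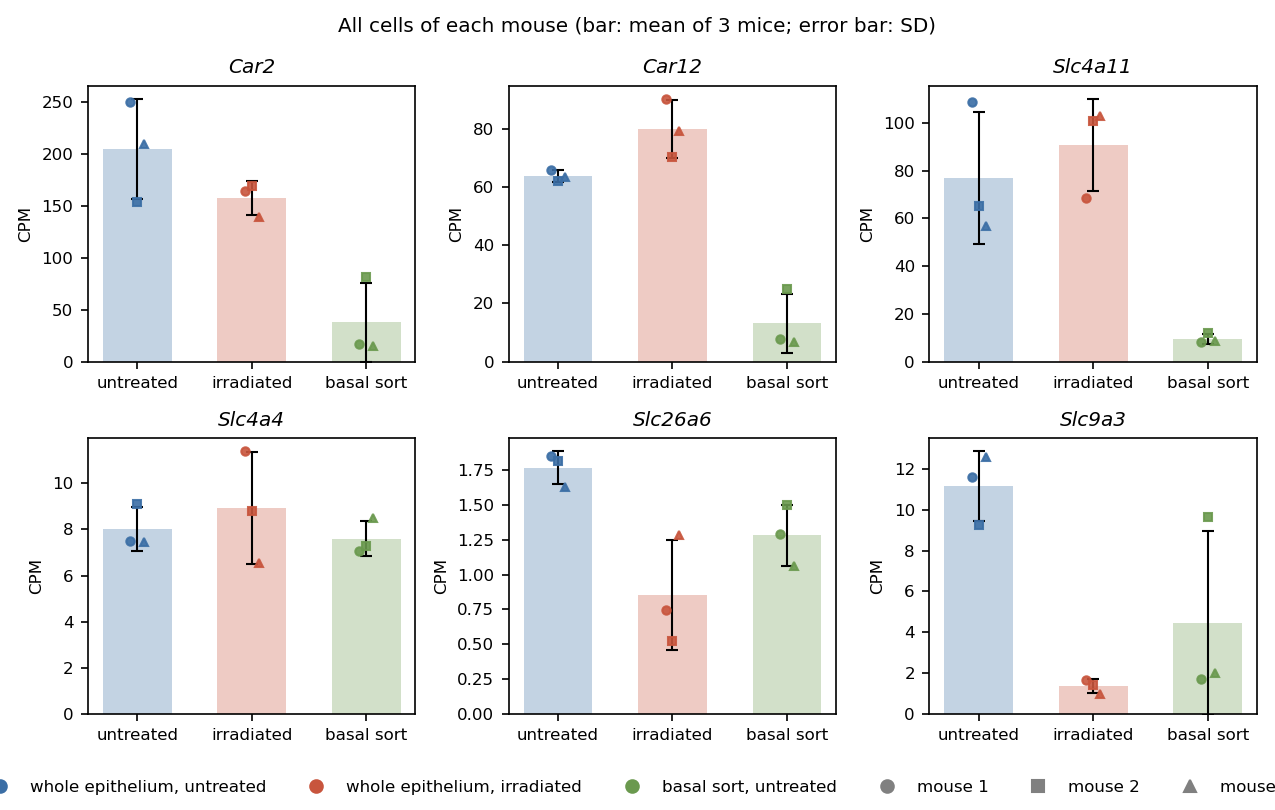
Level of each gene in CPM (linear y axes that start at 0 and differ between panels) over all cells of a mouse, in untreated and irradiated whole epithelium and in the basal sort on the x axis; points are mice, bars the mean of 3 mice and error bars the SD. Slc9a3 was between 9.24 and 12.6 CPM in untreated and between 0.99 and 1.65 CPM in irradiated mice, and basal-sort mouse 2 stands above mice 1 and 3 for Car2, Car12 and Slc9a3.

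Slc9a3 had the largest change of the 6, from 11.6, 9.24 and 12.6 CPM in untreated to 1.65, 1.41 and 0.99 CPM in irradiated mice 1 to 3, without overlap. It fell by 3.38 on the log2 scale (SE 0.20; adjusted p = 1.6e-05). With intercalated duct-like cells left out it had too few counts to test. Slc26a6 went from 1.85, 1.82 and 1.63 CPM to 0.75, 0.52 and 1.29 CPM, from 70 and 32 UMIs, and fell by 1.49 (SE 0.36; adjusted p = 0.0113). Without irradiated mouse 2 the value was -1.06 (adjusted p = 0.0653), and under a stricter cell filter it was -2.67. Acinar-like cells, which held most of its UMIs in the untreated cells kept, numbered 207 in untreated and 9 in irradiated mice.

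Car2 over all cells was at 250.3, 154 and 209.7 CPM in untreated and 164, 169 and 139 CPM in irradiated mice, which overlap. It fell by 0.71 (SE 0.15, adjusted p = 0.0056), and by 1.24 under a stricter cell filter. These levels leave out barcodes that had no hashtag call, 1719 untreated ones with Car2 at 20.9 CPM and 294 irradiated ones at 200.5 CPM. The direction with those barcodes included was not tested. With intercalated duct-like cells left out the direction turned, and Car2 was 1.02 ± 0.15 higher in irradiated mice (adjusted p = 0.00122). Car12, at 66.0, 62.0 and 63.6 CPM in untreated and 90.2, 70.4 and 79.3 CPM in irradiated mice, was higher in CPM without overlap, and its TMM-scaled change of -0.02 ± 0.09 did not pass (adjusted p = 0.904). Without intercalated duct-like cells it was 0.35 ± 0.10 higher (adjusted p = 0.0283). Slc4a11 (-0.07 ± 0.22, adjusted p = 0.825) and Slc4a4 (-0.21 ± 0.19, adjusted p = 0.397) did not pass, but Slc4a11 was 1.28 ± 0.23 higher under a stricter cell filter (adjusted p = 0.00275).

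The wider acid-base list held 61 genes: 16 carbonic anhydrases, 10 Slc4, 10 Slc26 and 11 Slc9 family members, and 14 channels, proton transporters and regulators. In granular duct-like cells 24 had enough counts, of which 4 rose and 3 fell (median log2 change -0.11, against -0.03 over all genes). Over all 9661 genes tested in this class 18.9% rose and 19% fell. Beside Car2 the risers were Slc9a3r1 (Nherf1, a scaffold that holds Slc9a3 and Cftr at the membrane), at 64.5 CPM in untreated and 116 CPM in irradiated mice (0.81 ± 0.12, adjusted p = 0.000369), and Slc9a7 and Atp4a, both under 10 CPM and named after their values were seen. Slc26a2, a sulfate transporter, fell from 21.0 to 13.6 CPM (-0.68 ± 0.14, adjusted p = 0.00318).

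In ionocyte-like cells 22 list genes were tested, of which 2 rose and 6 fell (median -0.23, against -0.02 over all genes). Over all 8936 genes tested in this class 15.4% rose and 10.6% fell. Slc9a3r1 rose from 78.3 to 148 CPM (0.95 ± 0.09, adjusted p = 4.5e-06) and Stk39, a kinase that controls chloride transporters, from 232 to 299.9 CPM (0.41 ± 0.12, adjusted p = 0.0184). Cftr, the chloride and bicarbonate channel, fell from 103 to 69.1 CPM (-0.48 ± 0.13, adjusted p = 0.0123), and Slc9a3r2 (Nherf2) by 0.51 (SE 0.17, adjusted p = 0.0398). Car6, the secreted carbonic anhydrase of saliva that acinar cells make, had the largest change in both classes. It fell from 161 to 1.37 CPM in granular duct-like cells and from 378 to 2.29 CPM in ionocyte-like cells, beside the acinar markers given above. Slc9a3r1, Slc26a2 and Car6 in granular duct-like cells, and Slc9a3r1, Stk39, Cftr, Slc9a3r2 and Car6 in ionocyte-like cells, separated the groups without overlap between mice.

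**Figure D5:**
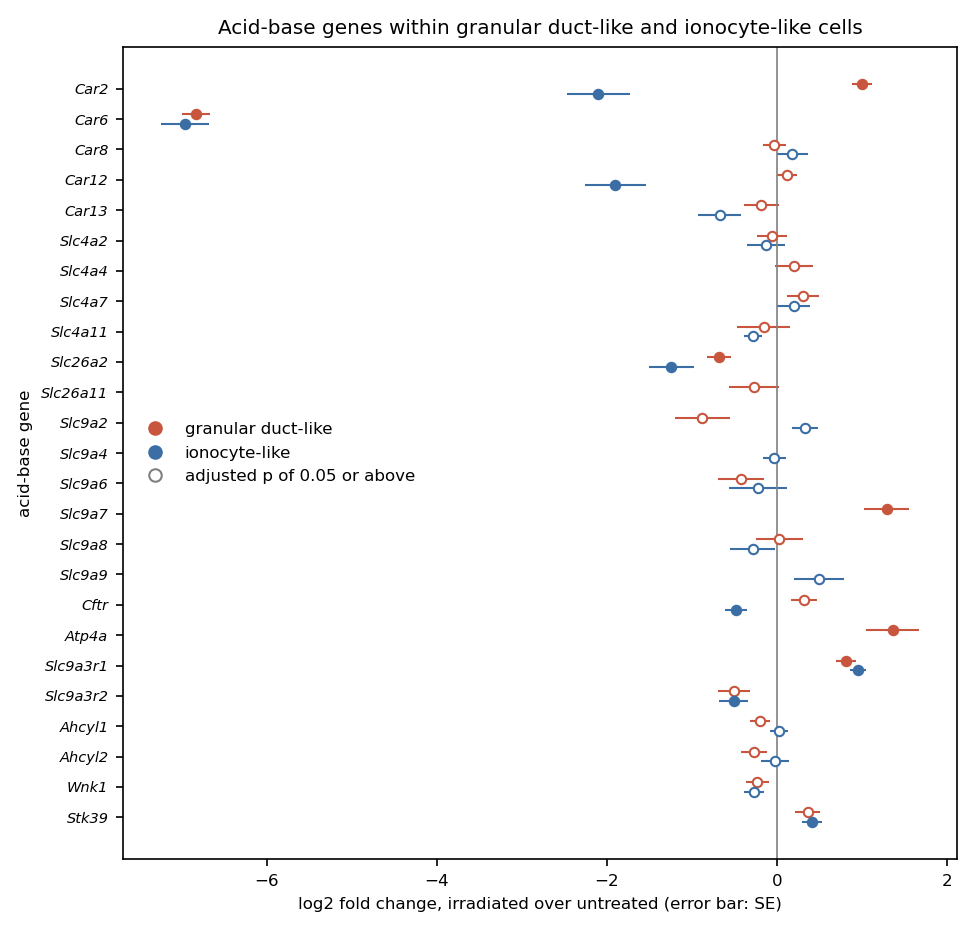
Log2 fold change of irradiated over untreated mice (x axis, error bars SE) for acid-base genes tested in granular duct-like or ionocyte-like cells (y axis); filled points have an edgeR adjusted p under 0.05. Car2 lies at 1.00 in granular duct-like and -2.10 in ionocyte-like cells, and Car6 near -7 in both.

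Over all cells 31 list genes were tested, of which 3 rose and 10 fell, where 20.6% of 11966 genes rose and 19.6% fell. Beside the members the list genes that passed included Slc9a3r1, which rose by 0.69 (SE 0.07, adjusted p = 0.000155). Car8, a catalytically inactive relative, fell by 0.80 (SE 0.09, adjusted p = 0.000257). Slc9a3r2 fell by 1.03 (SE 0.14, adjusted p = 0.000763) and Slc26a2 by 0.93 (SE 0.14, adjusted p = 0.000996). Car6 fell by 6.87 (SE 1.76, adjusted p = 0.0143), beside the fall in acinar-like cells from 207 to 9. The Slc4 sublist had 0 of 5 genes past the edgeR threshold over all cells, 0 of 4 in granular duct-like and 0 of 3 in ionocyte-like cells. At an unadjusted p under 0.05 there were 0, 0 and 1 gene. Over all genes tested 40.2%, 37.9% and 26% passed, and 3 to 5 genes are too few to set the Slc4 family apart from that share.

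The basal sort was compared with the same untreated whole epithelium, so this comparison shares its controls with the irradiation comparison. The basal sort held 2540 basal duct-like, 215 myoepithelial-like, 115 endothelial-like, 111 intercalated duct-like, 94 cycling-like, 17 unnamed and 5 granular duct-like cells and 1 ionocyte-like cell. The untreated whole epithelium held 19 endothelial-like cells, so some such cells passed both sorts. All 6 members fell, where 73.1% of 12927 genes passed, 36.9% lower and 36.2% higher. The median log2 change was -2.48 over the members and -0.02 over all genes.

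Slc4a11 was at 8.01, 11.99 and 8.62 CPM in basal-sort mice 1 to 3, against 108.7, 65.2 and 57.0 CPM in the untreated whole epithelium, and fell by 3.58 (SE 0.24; adjusted p = 1.3e-06), or by 2.18 under a stricter cell filter. Basal duct-like cells gave 94.0% of its 383 UMIs there, at 9.17, 12.5 and 9.12 CPM. Basal duct-like cells of this library were also the main source of Slc4a4, with 63.0% of 319 UMIs, and of Slc26a6, with 46 of 53 UMIs. Slc4a4 fell by 0.63 (SE 0.16; adjusted p = 0.0056), and its CPM of 7.05, 7.28 and 8.48 overlapped with the 7.49, 9.10 and 7.46 of the whole epithelium. Without intercalated duct-like cells the value was -0.46 (adjusted p = 0.0717). Slc26a6 fell by 1.02 (SE 0.25; adjusted p = 0.00479), from 1.63 to 1.85 CPM down to 1.06 to 1.499 CPM. With hashtags called by their share the value was -0.56 (adjusted p = 0.24), and under the stricter filter -1.90.

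Car2 was at 16.8, 81.9 and 15.2 CPM in basal-sort mice 1 to 3, and mouse 2 stood above the other mice of its group. That mouse held 70 of the 111 intercalated duct-like cells, and such cells gave 90.6% of the 1292 Car2 UMIs of this library. Car2 fell by 3.04 (SE 0.57; adjusted p = 0.000964), by 4.20 without mouse 2 and by 4.71 without intercalated duct-like cells. Car12 followed with 7.91, 24.9 and 6.85 CPM (-2.91 ± 0.38, adjusted p = 9.7e-05; -3.64 without mouse 2). Slc9a3 was at 1.72, 9.64 and 1.98 CPM (-2.05 ± 0.51, adjusted p = 0.00532; -3.12 without mouse 2), and mouse 2 overlapped with the whole epithelium.

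Of the acid-base list 34 genes were tested in this comparison, of which 8 rose and 21 fell. Over all 12927 genes tested 36.2% rose and 36.9% fell. All 8 tested Slc9 family genes fell. Slc4a7, an electroneutral sodium-bicarbonate cotransporter, rose from 11.2 CPM in the whole epithelium to 41.1 CPM in the basal sort (1.33 ± 0.17, adjusted p = 7.0e-05). Car6 fell by 11.55, Cftr by 3.79, Car8 by 2.38, Stk39 by 2.33, Slc26a2 by 1.78, Slc9a3r1 by 1.22 and Slc9a3r2 by 1.21, each without overlap between mice.

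Intercalated duct-like cells of the basal sort held these genes at levels that overlapped with or lay above those of the whole epithelium, with no test run. Car2 was at 1787, 1786 and 1525 CPM in basal-sort mice 1 to 3, which overlaps with the whole epithelium. Car12 was at 397, 466 and 438 CPM and Slc9a3 at 198.5, 213.5 and 236.6 CPM, above all untreated whole-epithelium mice. The values rest on 22, 70 and 19 cells, which lay mostly in cluster 7, where the whole epithelium held Slc9a3 at 124.5 CPM (95% exact Poisson interval 111 to 139) and the basal sort at 219.5 CPM (184 to 260.2). The acinar markers in the class summed to 5105 to 5456 CPM in the basal sort, with Bhlha15 and Aqp5 at 0, and 16621 to 28114 CPM in the whole epithelium, and their part in these levels was not tested.

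The genes whose pattern was most like that of a member were found over 21 sums of a class and mouse with at least 20 cells, from 5 classes of the untreated and irradiated epithelium, among 6378 genes of at least 10 CPM. For Car2 they were Chst9, Plcb4 and Mme (Pearson r of log2(CPM + 1) 0.944, 0.937 and 0.924). For Car12 they were Mme (0.974), Igsf5 (0.942) and Chst9 (0.938), so Mme and Chst9 stood beside both carbonic anhydrases. For Slc9a3 they were Gpc6 (0.975), Slc13a2 (0.959) and Rhoj (0.958), and for Slc4a11 Steap2 (0.974), Gng4 (0.971) and the ionocyte marker Stap1 (0.969). Slc4a4 and Slc26a6 were below 10 CPM on average and had no such search. Sums of 1 mouse share a library and its depth, so these values describe likeness across classes and carry no test.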

How the data were processed

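The authors deposited unnormalised UMI counts for each gene and each hashtag antibody in every barcode. Cell Ranger 6.1.2 and mm10 are named in the submitters' processing notes, per the labels. Deposited barcodes numbered 8277 (untreated), 3319 (irradiated) and 5044 (basal sort). Kept cells had 500 genes or more and a mitochondrial share of 20% or less, and HTODemux (Seurat 5.3.0, quantile 0.99, 5 starting clusters) assigned mice. Barcodes without an assignment (1719, 294 and 967) and hashtag doublets were left out, and Scrublet removed as many further cells as the hashtag doublets predict.

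All libraries were clustered together with scanpy 1.11.5 (2000 variable genes, 30 components, 15 neighbours, Leiden resolution 1), without acid-base genes. Clusters were named "-like" from 15 marker lists where 3 or more markers were raised 1.5-fold in 10% or more of cells. A cluster also stayed unnamed where another list held more of its leading genes, or where depth was low and no marker was among them. A cluster with 85% of both the granular and the ionocyte lists raised was called mixed. That threshold, and the rule that striated duct markers name a cluster only where fewer than 3 granular markers were raised, were set after seeing the clusters.

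Counts were summed per mouse and tested in R 4.3.3 with edgeR 4.0.16 (filterByExpr, TMM, quasi-likelihood, Benjamini-Hochberg across every gene that passed the filter, threshold 0.05), and the procedure was tested on simulated data. A class was tested where each mouse had 20 cells or more. CPM is the count over the total of the same sum of cells. The members, the lists and the settings were chosen with earlier results of these data known. Besides the 6 members, list genes were named if they passed with a mean of 10 CPM or more, at most 8 per comparison by size of change. A list gene is not reported here by name, though counts over the list include it. Alternatives were DESeq2 1.42.0, no count filter, each mouse left out, a replicate block, other cell filters (1000 genes and 10% mitochondrial, or 40% mitochondrial), other hashtag calls, no Scrublet, other clusterings, and cells left out after seeing the data. Intervals and floors (3 counts) cover counting error only.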

Additional observations from a re-analysis of the deposited data

Results flagged for a closer look

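The irradiation effect differed between ionocyte-like and granular duct-like cells for Car2, Car12, Cftr and Slc9a2 by the test of the difference itself (edgeR, mouse as a block), 3 mice per group. For Car2 the difference was -3.11 and for Car12 -1.99 on the log2 scale, and the ionocyte-like side rests on 78 untreated Car2 UMIs and on 69 Car12 UMIs.

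Cftr, the chloride and bicarbonate channel, had a difference of -0.851 (adjusted p = 0.000903). It was at 103 CPM in untreated and 69.1 CPM in irradiated ionocyte-like cells, and at 30.8 and 39.4 CPM in granular duct-like cells, where the change of 0.32 did not pass (adjusted p = 0.117). For Slc9a2, a sodium-proton exchanger, the difference was 1.17 (adjusted p = 0.039), between 0.33 in ionocyte-like and -0.88 in granular duct-like cells, neither of which passed on its own (adjusted p = 0.132 and 0.0529).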

How the results depend on the processing

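The rise of Car2 in granular duct-like cells kept its direction and its side of the threshold in all 17 alternatives (0.93 to 1.36 on the log2 scale), as did the difference of its effect between classes in all 15. The Car2 value in ionocyte-like cells did so in 16 of 17 and was -0.88 with no Scrublet removal. Leaving out intercalated duct-like cells, an alternative chosen after seeing the data, turned the all-cell values to 1.02 for Car2, 0.35 for Car12 and 0.032 for Slc4a4. Without Scrublet removal that of Car12 was 0.030. Slc4a11 changed sign most often: under the stricter cell filter it was 1.28 in all cells, 0.000602 in ionocyte-like cells and 1.68 for the difference between classes. In granular duct-like cells it was 0.28 with the default hashtag start, 0.61 with no Scrublet removal and 0.21 with acid-base genes kept in the clustering. Its difference between classes was 0.20 under the looser mitochondrial limit and 3.30 with each library clustered alone. Slc4a4 in granular duct-like cells was -0.024 under the looser limit.

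With single mice left out, Car12 in all cells ranged from -0.094 to 0.080, and Slc4a11 from -0.23 to 0.21 in all cells, from -0.34 to 0.28 in granular duct-like cells and from -0.66 to 0.19 for the difference between classes. With every mouse 5 of 28 tested acid-base genes had a difference between classes, where 11.5% of all genes passed. With single mice left out this number ranged from 3 to 5, and was 3 without untreated mouse 2 and without irradiated mouse 2 or 3. It was 3 with DESeq2, 2 under the stricter filter and 8 with each library clustered alone. The number of members that changed in granular duct-like cells was 1, and was 2 with no count filter and 3 with each library clustered alone, where Slc4a11 was at -3.58. The number of acid-base genes that changed there was 7, and was 11 with no count filter and 12 under the looser limit. In ionocyte-like cells 1 member and 4 acid-base genes changed under the stricter filter, against 2 and 8. The causes were not tested.

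Hashtag numbers carry no pairing: deviations of same-numbered mice correlated between -0.399 and 0.0499. With the number as a replicate block Car2 was at 1.02 in granular duct-like and -2.06 in ionocyte-like cells, and the counts of members that changed were the same, 3 in all cells, 1 in granular duct-like and 2 in ionocyte-like cells and 6 in the basal sort. The block changed no call of a member. The hashtag share rule could not be run within classes, because a mouse then had fewer than 20 cells. It kept 89, 829 and 91 cells of untreated whole-epithelium mice 1 to 3, against 702, 738 and 697 in the main setting. With the default hashtag start 343 cells of irradiated mouse 2 were kept, against 1223. The number of cells per mouse thus depended on the calling rule, and all values per mouse rest on the main calls. Depth limits Slc26a6 most, with 70 untreated and 32 irradiated UMIs in the cells kept.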

Other observations

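Barcodes that passed the cell filter but were assigned to no mouse entered no comparison. Among the 294 such irradiated barcodes Car2 was at 200.5 CPM and Slc4a11 at 138 CPM. Among the 1719 untreated ones Car2 was at 20.9 CPM, Slc4a11 at 9.93 CPM and Slc26a6 at 3.49 CPM. The untreated barcodes without a mouse thus held less Car2 and Slc4a11 per UMI, and more Slc26a6, than the 2137 untreated cells kept, whose means over mice were 204.7, 76.9 and 1.77 CPM. Barcodes that failed the filter (4184 untreated, 690 irradiated and 626 of the basal sort) had Car12 at 56.3, 64.9 and 103 CPM and Slc9a3 at 3.68, 2.29 and 30.2 CPM. These are sums of 1 library each and carry no test.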
